A study of Rattus norvegicus with 12 samples.

Results

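Transcripts of 9 proteins that build the tight junctions of epithelium were followed in rat mammary glands with and without estradiol and with and without dietary soy protein. They are the claudin genes Cldn1, Cldn3, Cldn4, Cldn7 and Cldn8, the occludin gene Ocln, the immunoglobulin-like adhesion protein genes Cxadr and F11r, and the scaffold gene Tjp1. The 9 genes were chosen with earlier results of these data known, and their probe sets were found by gene symbol in the platform annotation. All 9 were measured, by 13 of the 31099 probe sets and as 9 of 14217 genes.

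All rats were female Sprague-Dawley animals that were ovariectomized on postnatal day 50, and glands were collected on day 64. The casein group ate casein, a milk protein, from day 30 and received vehicle. The casein plus E2 group received 17β-estradiol (E2), at a dose not given here, from a mini-osmotic pump for 14 days. Its own labels name E2 and no diet, and casein is read from the treatment protocol. The soy group ate soy protein isolate from day 30 with vehicle, and the soy plus E2 group ate soy protein isolate and received E2. Each group had 3 arrays of pooled RNA from whole abdominal glands, and the number of animals in a pool is not given in the sources used here. All groups, the controls included, lacked ovaries, so the comparison without E2 is of ovariectomized glands. One label field speaks of hepatic expression, while the source field names mammary gland.

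Tight junctions seal the space between neighbouring epithelial cells at their apical border. Claudins are membrane proteins with 4 passes that form the barrier and set which ions cross it, occludin and the immunoglobulin-like proteins join them in the membrane, and scaffold proteins tie the strands to actin. In the mammary gland the junctions are leaky in pregnancy and close around the start of milk secretion, which keeps milk components in the lumen.

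Values were log2 values centred on each probe set's median over the 12 arrays. They therefore show how arrays differ and hold no level of expression, so neither detection nor the labelled tissue's markers as levels could be checked, and levels of different genes were not compared. Casein plus E2 pools 2 and 3 differed with an SD of 0.163 over all probe sets, against 0.302 or more in the 65 other pairs of arrays, and were averaged and counted as 1 sample (n = 2 for that group, n = 3 for the others, 11 samples). Where arrays are left out in turn below, leaving out casein plus E2 pool 1 leaves that group 1 sample, with its spread taken from the other groups. Leaving out pool 2 or 3 of that group removes no sample, since the other stands in for their mean. Casein pool 3 stood apart with a liver marker score (the mean log2 value of the list) of 5.93, against 0.28 or less in every other sample. Skeletal muscle markers scored 3.88 in casein pool 2 and 4.15 in soy pool 2, and 1.70 in casein pool 1, with all 7 markers above 0 there. Whether the pools of a group came from separate animals is not stated, and p-values reflect only the variation from pool to pool, which may be technical. The estrogen target Pgr was higher by 2.96 ± 0.26 (SE) with E2 over both diets.

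The 250 bases before the start site that the RefSeq promoter table uses are shown for 4 members because these genes differ in their response below, with Ocln and Cldn3 higher, Cldn1 lower and Cldn7 short of the threshold. They are RefSeq sequences of build GRCr8, 5′ to 3′ on the gene's strand. Capitals mark matches to the motifs searched.

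Cldn7, chr10:55188420-55188669, plus strand: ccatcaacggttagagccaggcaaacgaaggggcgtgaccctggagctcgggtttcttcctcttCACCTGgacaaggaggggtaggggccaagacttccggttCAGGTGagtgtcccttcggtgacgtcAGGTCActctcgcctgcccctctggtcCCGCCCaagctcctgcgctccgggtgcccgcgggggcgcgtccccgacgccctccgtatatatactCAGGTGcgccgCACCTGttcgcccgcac
Ocln, chr2:33441199-33441448, minus strand: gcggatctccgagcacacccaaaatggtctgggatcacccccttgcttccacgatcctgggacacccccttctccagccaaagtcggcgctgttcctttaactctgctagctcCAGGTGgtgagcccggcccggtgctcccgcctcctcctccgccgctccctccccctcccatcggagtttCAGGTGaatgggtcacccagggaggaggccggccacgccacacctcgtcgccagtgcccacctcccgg
Cldn3, chr12:27346548-27346797, minus strand: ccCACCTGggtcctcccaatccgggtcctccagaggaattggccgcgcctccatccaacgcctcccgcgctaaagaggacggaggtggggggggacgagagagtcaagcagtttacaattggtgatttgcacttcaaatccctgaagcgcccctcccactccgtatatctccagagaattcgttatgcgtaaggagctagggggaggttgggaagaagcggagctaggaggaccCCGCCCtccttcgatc
Cldn1, chr11:87926126-87926375, plus strand: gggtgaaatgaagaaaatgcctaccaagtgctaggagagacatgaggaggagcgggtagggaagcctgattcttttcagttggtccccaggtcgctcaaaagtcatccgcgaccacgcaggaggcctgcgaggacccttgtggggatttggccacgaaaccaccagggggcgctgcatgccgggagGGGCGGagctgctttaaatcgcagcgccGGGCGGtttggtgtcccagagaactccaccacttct

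Windows were matched for 7 of the 9 members, Cldn1, Cldn3, Cldn7, Cldn8, Ocln, Tjp1 and F11r. In 5 of them the window abuts the annotated 5′ end of the gene. The Ocln window lies inside the gene, 759 bases from that end, and the Tjp1 window 179408 bases inside it, so both are upstream of an internal start and not of the outermost one. Motifs were searched on both strands. The letters CAGGTG, the E-box bound by Snail and Zeb repressors, were in 4 of the 7 windows (Cldn3, Cldn7, Ocln and F11r) and in 15.6% of all 27457 promoter windows of this length. Cldn7 held 4 such matches and Ocln held 2. The GC box GGGCGG was in 4 of 7 (Cldn1, Cldn3, Cldn7 and F11r) and in 32.4% of all windows. The estrogen receptor half-site AGGTCA was in Cldn7, 121 bases before the start, and in 13.7% of all windows, while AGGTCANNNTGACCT was in no member window and in 1 of 27457. The Grainyhead-like letters AACCNGTT were in the internal Tjp1 window (1.65% of all windows), the AP-1 letters TGANTCA in F11r (6.36%), and TATAAA in none of the 7 (13.1%). No position was shared by 2 motifs that were searched in the 4 sequences printed. In the same build Cldn3 (chromosome 12, 27345075 to 27346547) and Cldn4 (27388160 to 27389958) are neighbours 41613 bases apart, with 2 pseudogenes and no protein-coding gene between them.

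With E2, averaged over both diets, 4 of the 9 genes rose, Cxadr, Cldn8, Ocln and Cldn3, and 1 fell, Cldn1. Cldn7, Cldn4, F11r and Tjp1 did not pass the test. The rises ranged from 1.01 for Cldn3 to 2.73 for Cxadr on the log2 scale, and the fall of Cldn1 was 0.39. These 5 of 9 calls (limma across all genes, Benjamini-Hochberg adjusted p under 0.05) stand beside 12.2% of all 14217 genes called in this comparison, with 6.73% of genes higher and 5.51% lower. The median change of the 9 was 1.01, against 0.00 over all genes, and 7 of 9 were above 0. An unadjusted p under 0.05 was reached by 7 of the 9 and by 29.0% of all genes. Since the 9 were chosen with earlier results of these data known, these shares describe the set and do not test it. RNA was of the whole gland, so more epithelial cells and more RNA per cell cannot be told apart, and luminal epithelial markers moved with these genes: 8 of 11 rose with E2 and 1, Krt7, fell. The luminal marker score lay between 0.02 and 0.46 in the 5 samples with E2 and between -1.28 and 0.02 in the 6 without.

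**Figure D1:**
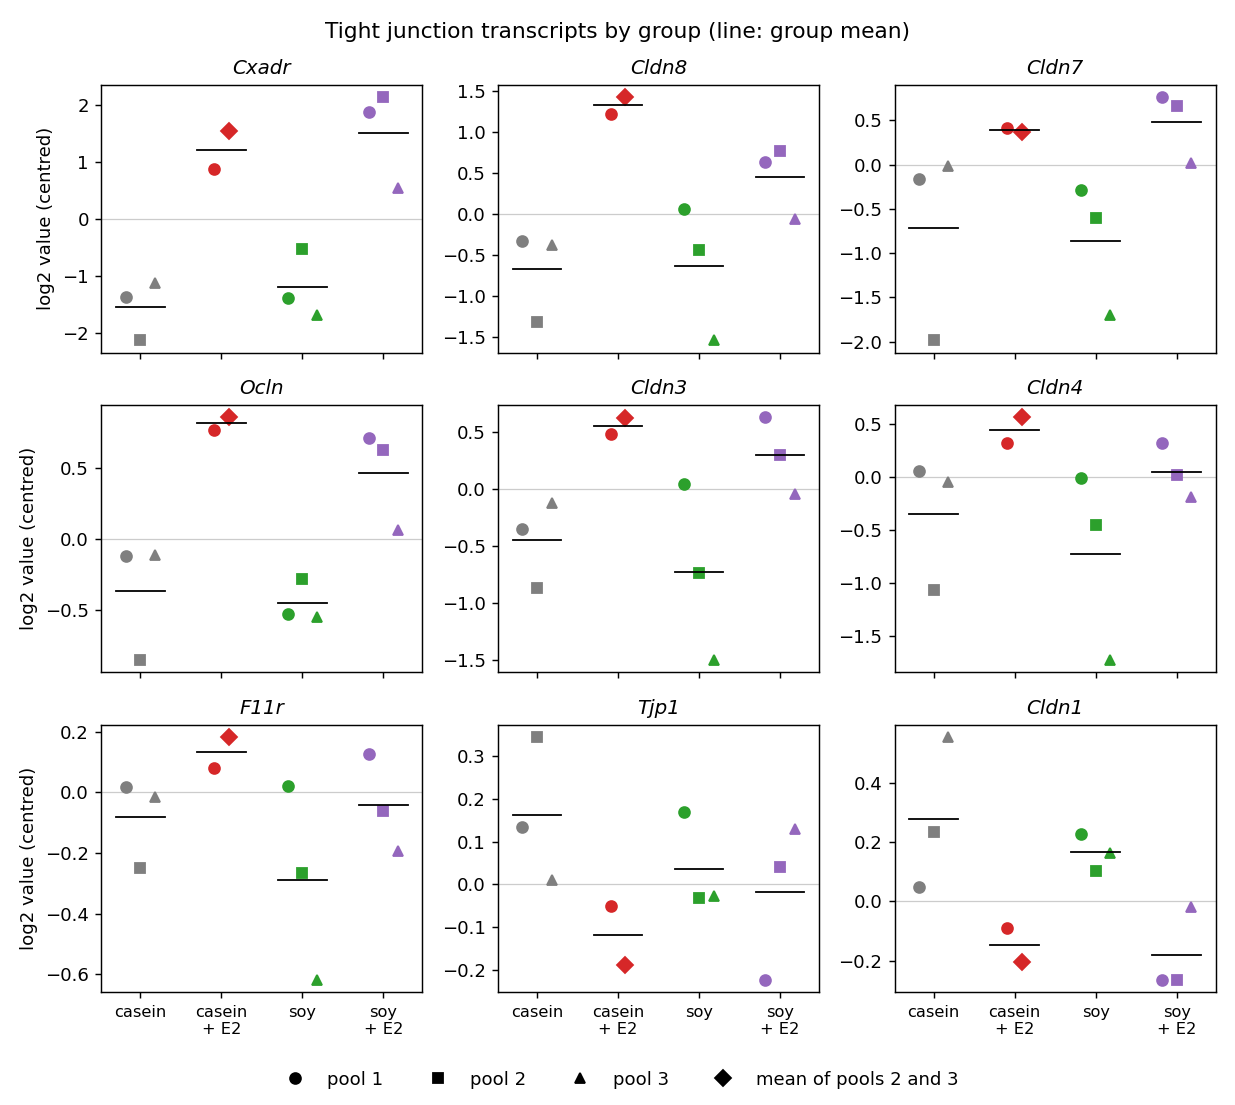
Centred log2 value of each of the 9 genes (vertical axis, its own scale in each panel) in the 4 groups; symbols are pools and lines are group means, with 2 samples for casein plus E2 and 3 for each other group. Samples with E2 lie above those without in Cxadr, Ocln and Cldn7 and below them in Cldn1, and overlap them in the other panels.

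Cxadr encodes an adhesion protein of the junction that is also the entry receptor of coxsackie B viruses and many adenoviruses, and it changed the most of the 9. Its log2 values were -1.375, -2.13 and -1.13 in casein pools 1, 2 and 3 and -1.39, -0.53 and -1.68 in soy pools 1, 2 and 3. With E2 they were 0.88 in casein plus E2 pool 1, 1.54 in the mean of pools 2 and 3, and 1.87, 2.13 and 0.53 in soy plus E2 pools 1, 2 and 3. Every sample with E2 was above 0 and every sample without was below it. Cxadr rose by 2.73 ± 0.34 (log2 fold change ± SE, limma adjusted p = 0.00487), a 6.65-fold difference with a 95% interval of 3.90 to 11.3. The change was 2.75 ± 0.51 in casein-fed and 2.71 ± 0.46 in soy-fed rats. With any 1 of the 12 arrays left out the gene still passed (2.58 to 2.98, adjusted p from 0.000751 to 0.0266).

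The other immunoglobulin-like member, F11r, encodes the junctional adhesion molecule JAM-A. Its log2 values lay between -0.62 in soy pool 3 and 0.18 in the averaged casein plus E2 sample, and the groups overlapped. Its difference with E2 was 0.23 ± 0.12 (limma adjusted p = 0.237), with a 95% interval from -0.04 to 0.50, and 0.15 without soy pool 3.

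Cldn8 encodes a claudin that limits the passage of cations. Its log2 values were -0.34, -1.32 and -0.38 in the casein pools and 0.06, -0.44 and -1.55 in the soy pools. They were 1.22 and 1.43 in the casein plus E2 samples and 0.63, 0.77 and -0.06 in the soy plus E2 pools. The casein plus E2 samples were the highest of all, and soy plus E2 pool 3 lay below soy pool 1, so the samples with and without E2 overlapped. Cldn8 rose by 1.54 ± 0.31 (limma adjusted p = 0.0176), or 2.92-fold (95% interval 1.81 to 4.71). Without casein plus E2 pool 1 the change was 1.595 and did not pass (adjusted p = 0.063).

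Cldn3, a barrier-forming claudin, had log2 values of -0.35, -0.87 and -0.12 in the casein pools and 0.04, -0.74 and -1.505 in the soy pools. With E2 the values were 0.48 and 0.62 in the casein-fed samples and 0.63, 0.30 and -0.04 in the soy-fed pools. Soy pool 1 lay above soy plus E2 pool 3, and the other values without E2 were below all those with it. The rise was 1.01 ± 0.26 (limma adjusted p = 0.0382), or 2.02-fold (95% interval 1.34 to 3.04). The call was lost without any 1 of 6 arrays, namely casein pools 1 and 2, soy pool 2, casein plus E2 pool 1 and soy plus E2 pools 1 and 2, and the change lay between 0.82 and 1.21 over the 12 arrays left out in turn (adjusted p up to 0.109).

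Its neighbour on chromosome 12, Cldn4, encodes a claudin that lowers the passage of sodium. Its log2 values were 0.06, -1.07 and -0.05 in the casein pools, -0.015, -0.45 and -1.73 in the soy pools, 0.32 and 0.565 in the casein plus E2 samples, and 0.32, 0.015 and -0.19 in the soy plus E2 pools. Casein pool 2 and soy pool 3 were the lowest, and the samples with and without E2 overlapped. The difference with E2 was 0.79 ± 0.32 (limma adjusted p = 0.135; 95% interval 0.08 to 1.50), and it did not pass with any 1 of the 12 arrays left out.

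Cldn7, a claudin found along the lateral membrane as well as at the junction, had log2 values of -0.16, -1.99 and -0.02 in the casein pools and -0.29, -0.60 and -1.70 in the soy pools. With E2 it stood at 0.42 and 0.37 in the casein-fed samples and at 0.76, 0.66 and 0.02 in the soy-fed pools. The samples with and without E2 did not overlap, yet the difference of 1.23 ± 0.39 did not pass (limma adjusted p = 0.0694; 95% interval 0.36 to 2.10). The SD within groups was 0.74, the widest of the 9 genes. Without casein pool 3 the difference was 1.40 and passed (adjusted p = 0.0476).

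Cldn1, a claudin that the skin barrier depends on, was the 1 member that fell. Its log2 values were 0.05, 0.23 and 0.55 in the casein pools and 0.23, 0.10 and 0.16 in the soy pools, against -0.09 and -0.21 in the casein plus E2 samples and -0.27, -0.27 and -0.02 in the soy plus E2 pools. All 6 samples without E2 were above all 5 with it. Cldn1 fell by 0.39 on the log2 scale (-0.39 ± 0.10, limma adjusted p = 0.0353), which is 0.765 of the level without E2 (95% interval 0.657 to 0.891). Its highest value was in casein pool 3, the pool with the liver transcripts, and without that pool the change was -0.32 and passed. The call was lost without any 1 of 7 arrays, namely casein pool 2, all soy pools, casein plus E2 pool 1 and soy plus E2 pools 1 and 2 (change from -0.44 to -0.32, adjusted p up to 0.0929).

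Ocln encodes occludin, the first membrane protein identified in the tight junction strand. Its log2 values were -0.12, -0.86 and -0.11 in the casein pools and -0.53, -0.285 and -0.55 in the soy pools, against 0.77 and 0.86 in the casein plus E2 samples and 0.72, 0.63 and 0.06 in the soy plus E2 pools. The samples with and without E2 did not overlap. Ocln rose by 1.05 ± 0.17 (limma adjusted p = 0.00992), or 2.07-fold (95% interval 1.60 to 2.69), and the call held without each array in turn (0.93 to 1.15, adjusted p up to 0.0446).

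Tjp1 encodes ZO-1, the scaffold that binds claudins and occludin to the cytoskeleton. Its log2 values lay between -0.22 in soy plus E2 pool 1 and 0.34 in casein pool 2, the narrowest range of the 9 genes at 0.57. The difference with E2 was -0.17 ± 0.09 (limma adjusted p = 0.266; 95% interval -0.38 to 0.04).

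In order of the change with E2 the genes ran Cxadr, Cldn8, Cldn7, Ocln, Cldn3, Cldn4, F11r, Tjp1 and Cldn1. The 95% intervals of all neighbours in this order overlapped. In 4 of the 9 genes, Cxadr, Cldn7, Ocln and Cldn1, no value with E2 fell within the range of the 6 without. This held for 6.88% of all genes, 4.26% with E2 higher and 2.62% with E2 lower.

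**Figure D2:**
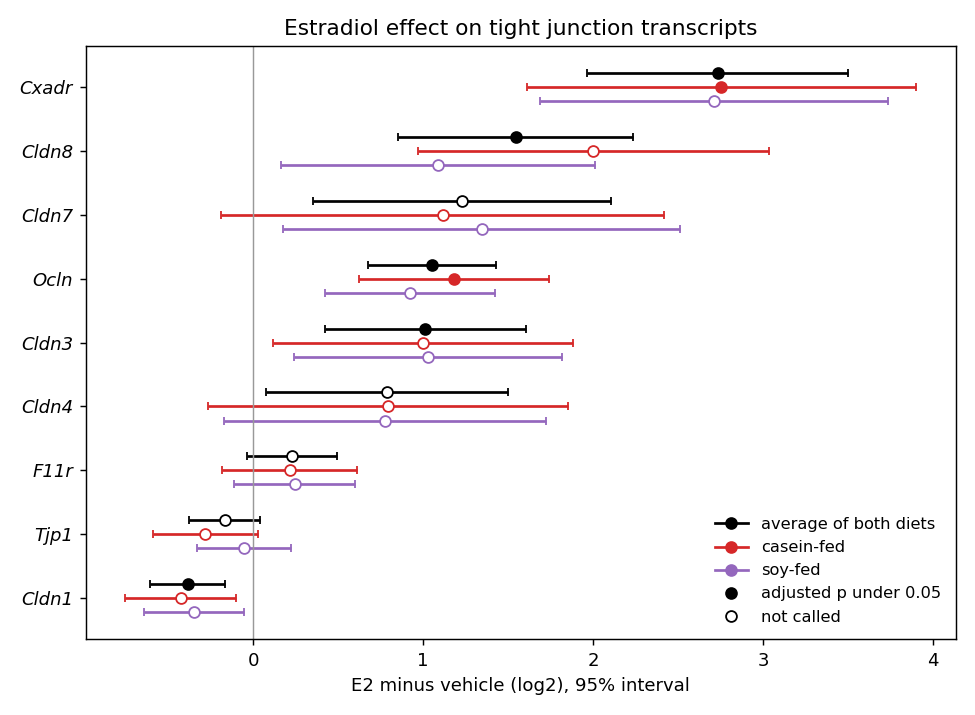
Difference between E2 and vehicle (horizontal axis, log2) for each gene with its 95% interval, averaged over diets (black), in casein-fed rats (red) and in soy-fed rats (purple); filled points passed the adjusted test. Cxadr has the highest values in all 3 comparisons, at 2.71 to 2.75, and the purple points are all open.

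Genes with several probe sets did not always give 1 answer. For Cldn1, probe set 1383946_at changed by -0.61 ± 0.12 (limma over all probe sets, adjusted p = 0.0193) and 1396150_at by -0.46 ± 0.12 (adjusted p = 0.0463), while 1387470_at differed by -0.09 ± 0.10 and did not pass (adjusted p = 0.634). For Tjp1, 1372473_at differed by -0.37 ± 0.13 (adjusted p = 0.121) and 1395337_at by 0.03 ± 0.09 (adjusted p = 0.876). Both Ocln probe sets rose, 1378753_at by 1.20 ± 0.25 (adjusted p = 0.0234) and 1398281_at by 0.91 ± 0.10 (adjusted p = 0.0040). The remaining 6 genes had 1 probe set each. Of the 13 probe sets 7 passed, beside 8.00% of all 31042 probe sets that were not controls.

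**Figure D3:**
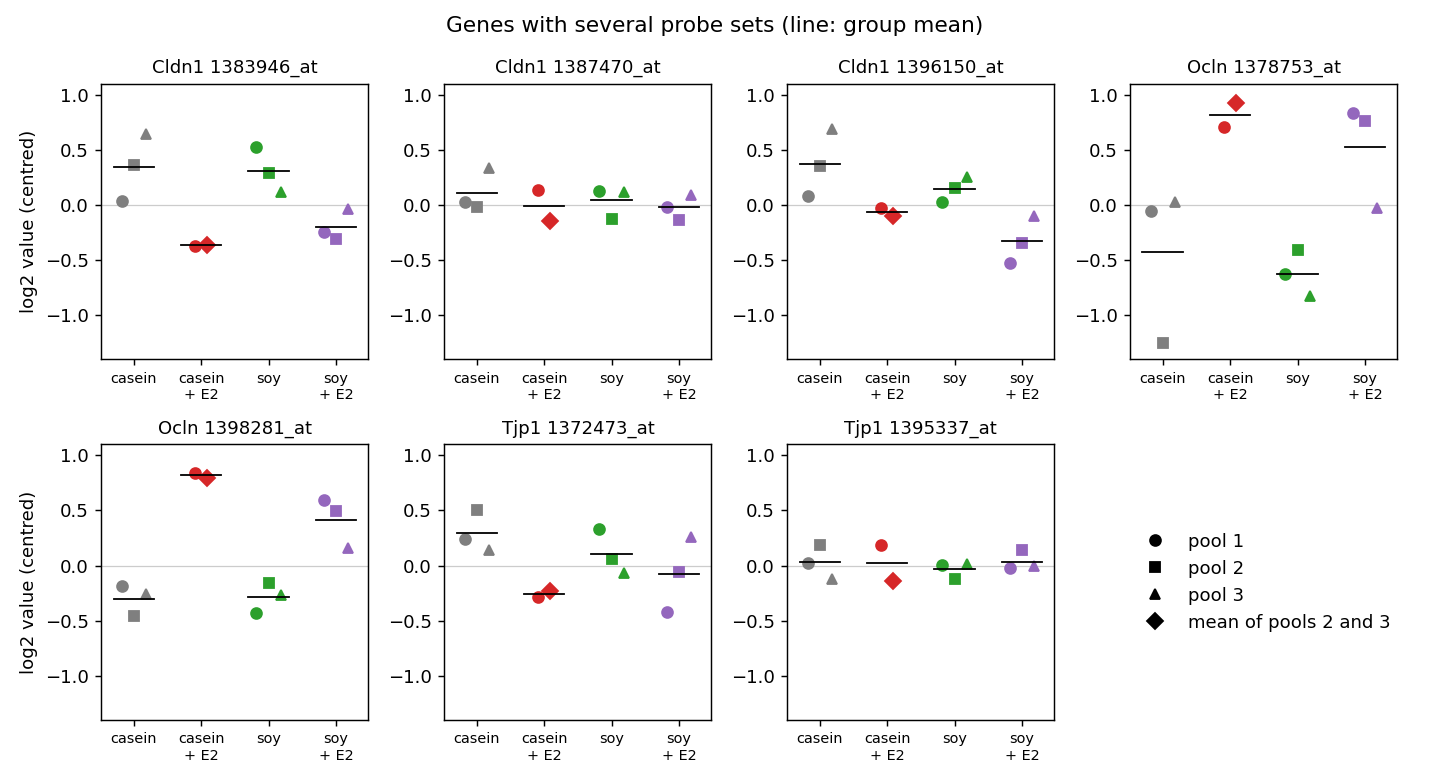
Centred log2 value (vertical axis, the same scale in all panels) of each probe set of Cldn1, Ocln and Tjp1 in the 4 groups; symbols are pools and lines are group means. Both Ocln probe sets are higher with E2, whereas Cldn1 probe set 1387470_at and Tjp1 probe set 1395337_at stay within 0.34 of 0 in every sample.

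In casein-fed rats alone, E2 raised Cxadr (2.75 ± 0.51, limma adjusted p = 0.0365) and Ocln (1.18 ± 0.25, adjusted p = 0.0439), beside 2.43% of all genes called. Cldn8 differed by 2.002 ± 0.46 (adjusted p = 0.0556), Cldn7 by 1.11 ± 0.58, Cldn3 by 0.998 ± 0.39, Cldn4 by 0.80 ± 0.47, Cldn1 by -0.43 ± 0.15, Tjp1 by -0.28 ± 0.14 and F11r by 0.21 ± 0.18, and none of these passed. Without casein pool 2 the difference was 0.48 for Cldn7, 0.44 for Cldn4 and 0.13 for F11r. An unadjusted p under 0.05 was reached by 5 of 9 members and 19.6% of all genes. The 2 casein plus E2 samples did not overlap the 3 casein pools in any of the 9 genes, which was also so for 39.8% of all genes. Neither call held without casein pool 1 or 2, soy pool 2 or casein plus E2 pool 1, and the Ocln call was lost as well without casein pool 3, soy pool 3 or soy plus E2 pool 2. Over all 12 arrays left out in turn Cxadr lay between 2.46 and 3.09 and Ocln between 0.935 and 1.31.

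In soy-fed rats alone no member passed in limma, beside 0.218% of all genes called. The differences were 2.71 ± 0.46 for Cxadr (adjusted p = 0.0579), 0.92 ± 0.22 for Ocln (adjusted p = 0.0942), 1.34 ± 0.52 for Cldn7, 1.09 ± 0.41 for Cldn8, 1.03 ± 0.35 for Cldn3, 0.78 ± 0.42 for Cldn4, 0.25 ± 0.16 for F11r (0.245 before rounding), -0.05 ± 0.12 for Tjp1 and -0.35 ± 0.13 for Cldn1. Of the 9 members 6 had an unadjusted p under 0.05, beside 20.6% of all genes. Soy and soy plus E2 pools did not overlap in Cxadr, Cldn7, Ocln and Cldn1, and 24.6% of all genes showed this. Soy plus E2 pool 3 was the lowest of its group in 7 of the 9 genes, all but Cldn1 and Tjp1, and without it Cxadr (3.20, adjusted p = 0.00661) and Ocln (1.13, adjusted p = 0.0277) passed in limma, beside 5.35% of all genes called without that pool. Without soy pool 3, the lowest soy pool in 7 of the 9 genes, the differences were 0.64 for Cldn8, 0.64 for Cldn3, 0.28 for Cldn4 and 0.08 for F11r. None of the 9 passed then, beside 0% of all genes called without that pool. The Tjp1 value lay between -0.13 and 0.05 over the arrays left out in turn.

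The response to E2 was compared between the diets by the interaction term, which was not called for any of the 9 genes or for any of the 14217 (limma, 0% of genes called, 6.53% with an unadjusted p under 0.05). No member had an unadjusted p under 0.05. The largest difference was in Cldn8, whose change with E2 was 0.91 smaller in soy-fed rats (-0.91 ± 0.62, adjusted p = 0.817; 95% interval -2.30 to 0.47). For Cxadr the difference was -0.04 ± 0.69, with a 95% interval from -1.58 to 1.49, and for Cldn7 it was 0.23 ± 0.78 (-1.52 to 1.98), so changes of over 1 log2 unit in either direction lie within the error. The narrowest intervals were those of Tjp1 (-0.19 to 0.64) and Cldn1 (-0.36 to 0.52).

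Soy without E2 gave no call among the members in limma, beside 0% of all genes called, and no member had an unadjusted p under 0.05 (10.4% of all genes did). With array weights 1588 genes (11.2%) were called in this comparison, and 327 (2.3%) without soy pool 1, with no member among them in either setting. The differences between soy and casein ran from -0.38 ± 0.42 for Cldn4 to 0.35 ± 0.46 for Cxadr (0.345 before rounding), and the highest 95% bound was 1.37 (2.58-fold), for Cxadr. The lowest 95% bounds were 0.399-fold for Cldn4 and 0.404-fold for Cldn7. Changes of over 1 log2 unit in either direction thus lie within the error for some members. With E2, soy and casein differed by -0.88 ± 0.46 for Cldn8, -0.40 ± 0.47 for Cldn4, -0.35 ± 0.25 for Ocln and 0.30 ± 0.51 for Cxadr. None of the 9 passed in limma (0.00703% of genes called, 0 members with an unadjusted p under 0.05 beside 5.10% of all genes). In Cldn8, Cldn4 and Ocln the soy plus E2 pools all lay below both casein plus E2 samples, as in 12.8% of all genes. All comparisons with the same group share its samples, so the E2 and the soy comparisons are not independent of each other.

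Members that were low in a pool were low together. Casein pool 2 was the lowest casein pool in 7 of 9 genes, soy pool 3 the lowest soy pool in 7 and soy plus E2 pool 3 the lowest of its group in 7. In each case the 7 were Cxadr, Cldn3, Cldn4, Cldn7, Cldn8, Ocln and F11r. How many of all genes were lowest in these pools was not counted, so this may not be particular to the members. The luminal marker score was also lowest in these pools of each group, at -0.83 in casein pool 2 against 0.01 and 0.02 in pools 1 and 3, at -1.28 in soy pool 3 against -0.11 and -0.55, and at 0.02 in soy plus E2 pool 3 against 0.46 and 0.28. Casein pool 2 was also high in skeletal muscle markers, and soy pool 3 had the highest lymphocyte marker score, 2.535. Soy pool 2, with the higher muscle score of 4.15, was the lowest soy pool only in Cldn1 and Tjp1. Casein pool 2 stood apart in the mean spike-in control signal as well, at 1.11 against 0.26 or less on every other array. Soy plus E2 pool 3 was also the lowest of its group in Pgr, at 0.82 against 2.21 and 2.24 in pools 1 and 2. Its milk gene score was 0.53 against 1.36 and 1.34, and its adipocyte marker score 0.04 against -1.55 and -0.95. The part of any of these in the low values was not tested.

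**Figure D4:**
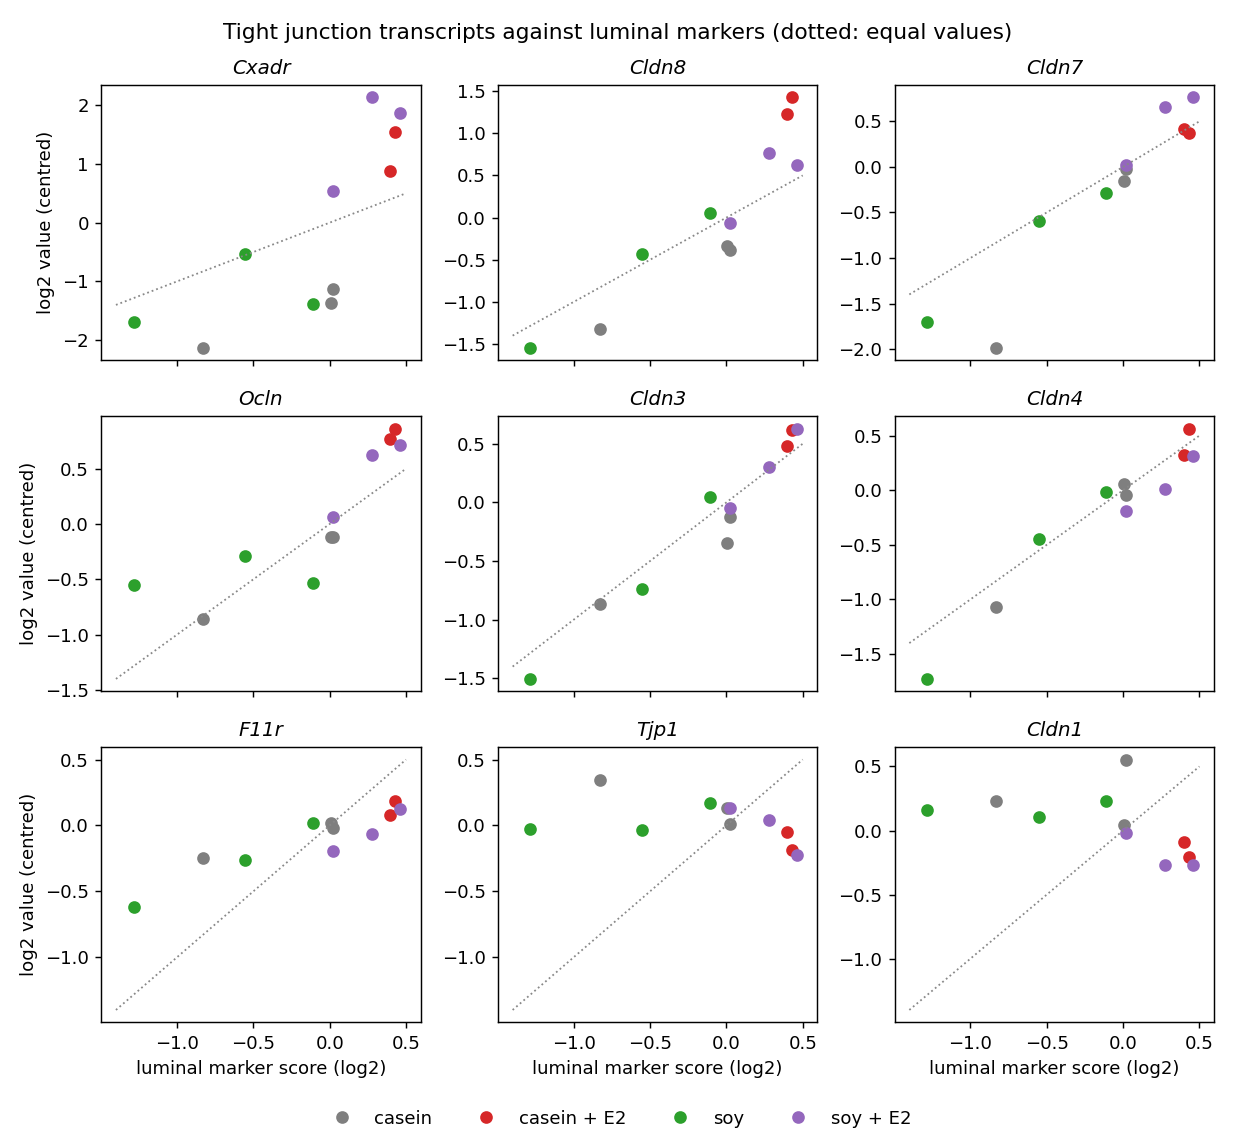
Centred log2 value of each gene (vertical axis) against the mean of 11 luminal epithelial markers in the same sample (horizontal axis, log2); each point is 1 of 11 samples, coloured by group, and the dotted line marks equal values. Cldn3 and Cldn4 lie at most 0.44 from the line, the Cxadr points with E2 lie above it, and the Cldn1 and Tjp1 points run flat or downward.

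Set against the luminal markers in the same sample, the members parted. Cldn4 minus the luminal score lay between -0.44 and 0.14 in all 11 samples, and Cldn3 minus the score between -0.36 and 0.19. Cxadr minus the score was -1.38, -1.30 and -1.15 in the casein pools, -1.28, 0.02 and -0.40 in the soy pools, 0.48 and 1.11 in the casein plus E2 samples, and 1.41, 1.85 and 0.51 in the soy plus E2 pools, so the samples with E2 were above all those without on this scale too. Cldn1 minus the score lay between 0.04 and 1.45 without E2 and between -0.73 (-0.725 before rounding) and -0.04 with it. The score itself was 0.02 or more with E2 and 0.02 or less without, so an unchanged gene would also be lower with E2 on this scale. How many of all genes separate on this scale was not counted. With the score subtracted from every gene, the E2 differences were 1.94 ± 0.32 for Cxadr, 0.75 ± 0.32 for Cldn8, 0.44 ± 0.32 for Cldn7, 0.26 ± 0.32 for Ocln, 0.22 ± 0.32 for Cldn3 and 0.00 ± 0.32 for Cldn4. For F11r the difference was -0.56, for Tjp1 -0.96 and for Cldn1 -1.18. The SE of 0.32 was the same for every member in that fit, so it is a shared value and not each gene's own spread. It therefore cannot show which of these differences lie within a gene's own error. That fit called Cxadr, Cldn8, Tjp1 and Cldn1, but it called 74.9% of all genes, since the same score with its own E2 difference is taken from each, so its calls are not read here.

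With the luminal score as a term in the fit instead, an alternative chosen after seeing the data, limma called none of the 9 and 0 of 14217 genes for the E2 average, and 2231 genes had an unadjusted p under 0.05. The E2 difference was then 2.06 ± 0.46 for Cxadr (2.055 and 0.455 before rounding; adjusted p = 0.165), 0.68 ± 0.21 for Ocln (adjusted p = 0.206) and 0.51 ± 0.15 for Cldn8 (0.505 before rounding; adjusted p = 0.202). It was 0.14 ± 0.15 for Cldn3 (0.135 and 0.145 before rounding), -0.08 ± 0.20 for Cldn7, -0.31 ± 0.12 for Cldn4 (-0.305 and 0.115 before rounding) and -0.39 ± 0.16 for Cldn1 (0.155 before rounding). The rises of Ocln, Cldn8 and Cldn3 were smaller by over 1.5 times than without the term, and Cldn4, Cldn7 and F11r (-0.135) changed sign. The score itself differed with E2, so the term and E2 share part of their variation.

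The genes outside the members whose values followed the mean of the 9 most closely over the 11 samples were Muc4, Slc44a4, Myh14, Tns4, Irx2 and Trim2. Muc4, a membrane mucin, had Pearson r = 0.995 and Spearman rho = 0.955 with that mean, and the other 5 had r from 0.988 to 0.989. After each group's mean was removed, r was 0.995 for Muc4 and 0.963 to 0.980 for the other 5. Among the luminal markers r was 0.955 for the adhesion protein gene Epcam, 0.910 for keratin gene Krt8, 0.907 for Krt18, 0.964 for Krt19 and 0.949 for the vesicle transport gene Rab25, while Krt7 had -0.553. After each group's mean was removed, r was 0.942 for Epcam, 0.953 for Krt8, 0.950 for Krt18, 0.955 for Krt19 and 0.908 for Rab25, and that of Krt7 turned to 0.196. The remaining luminal markers, Esrp1, St14, Spint1, Spint2 and Ap1m2, had r from 0.962 to 0.982. Without the group means their r ran from 0.935 for Spint1 to 0.990 for Esrp1. These are descriptions over samples that share groups and whole-gland RNA, and the first 6 genes were selected by r. With E2, Muc4 rose by 1.94 ± 0.41 (1.935 and 0.415 before rounding), Tns4 by 1.90 ± 0.34, Irx2 by 1.47 ± 0.34, Slc44a4 by 1.40 ± 0.27, Myh14 by 0.88 ± 0.20 and Trim2 by 0.48 ± 0.10. All 6 were called in limma with adjusted p of 0.0263 or less, beside 12.2% of all genes. The mean of the 9 lay between 0.03 and 0.57 with E2 and between -1.02 and -0.14 without. Selection by r with that mean largely fixed these rises in advance, so the 6 calls are not a separate result.

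Counts in 5 lists of other junction genes are read against the 12.2% of all genes called for the E2 average, 6.73% higher and 5.51% lower. Of 12 other claudins measured 2 rose and 1 fell, which is 25.0% called. Cldn10, which forms ion-selective pores, rose by 1.24 ± 0.19 (limma adjusted p = 0.00861) and Cldn6 by 0.40 ± 0.09 (adjusted p = 0.0263). Cldn5, the claudin of endothelium, fell by 0.87 on the log2 scale (-0.87 ± 0.17, adjusted p = 0.0155), beside 3 of 8 endothelial markers that fell. Cldn10 stood between -0.54 and -0.14 without E2, at 0.14 and 0.18 in the casein plus E2 samples and at 2.19, 1.28 and 0.99 in the soy plus E2 pools, and its difference between the diets with E2 was 1.33 ± 0.28 (adjusted p = 0.413), which did not pass. The median of the 12 was -0.05.

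Of 11 other junction membrane proteins 9 were called, or 81.8%. In this list 4 rose, Igsf5 (1.65 ± 0.41), the tricellular junction genes Lsr (0.96 ± 0.23) and Ildr1 (0.57 ± 0.14), and the apical polarity gene Crb3 (0.85 ± 0.18). In the same list 5 fell, among them the endothelial adhesion gene Esam (-0.51 ± 0.13), Ildr2 (-0.55 ± 0.15), Pmp22 (-0.69 ± 0.15), known from peripheral myelin, and Clmp (-0.75 ± 0.16). The median of the list was -0.05. Of 23 scaffold and polarity proteins 4 were called, or 17.4%, near the share of all genes: 3 rose, cingulin gene Cgn (1.33 ± 0.29), Pard6g (1.09 ± 0.27) and the ZO-3 gene Tjp3 (0.58 ± 0.16), and Amotl2 fell (-0.49 ± 0.11). The other 19 did not pass.

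Of 19 adherens junction and desmosome genes 4 were called, or 21.1%: 3 rose, the desmosomal cadherin gene Dsg2 (1.48 ± 0.36), Pkp2 (0.97 ± 0.25) and Perp (0.96 ± 0.20, 0.955 before rounding), and Nectin3 fell (-0.22 ± 0.06), while the E-cadherin gene Cdh1 differed by 0.35 ± 0.17 and did not pass (adjusted p = 0.219). Of 10 transcription regulators of epithelial junctions 3 were called, or 30.0%: Grhl1 (1.59 ± 0.29), a Grainyhead-like factor, and the Ets factor gene Ehf (1.14 ± 0.30) rose, and Zeb2, a repressor of epithelial genes, fell (-0.68 ± 0.08, adjusted p = 0.00487). All these calls are of the E2 average in limma with adjusted p of 0.0477 or less. Among the luminal markers Krt19 rose by 1.16 ± 0.27 (1.155 before rounding), Rab25 by 0.999 ± 0.18 and Epcam by 0.90 ± 0.25, Krt8 (0.70 ± 0.26) and Krt18 (0.74 ± 0.25) did not pass, and Krt7 fell by 0.94. The median change was 0.96 over the 11 luminal markers, 1.01 over the 9 tight junction genes and 3.31 over 7 milk genes, all 7 of which rose. Over 9 adipocyte markers, 7 of which fell, the median was -1.18.

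**Figure D5:**
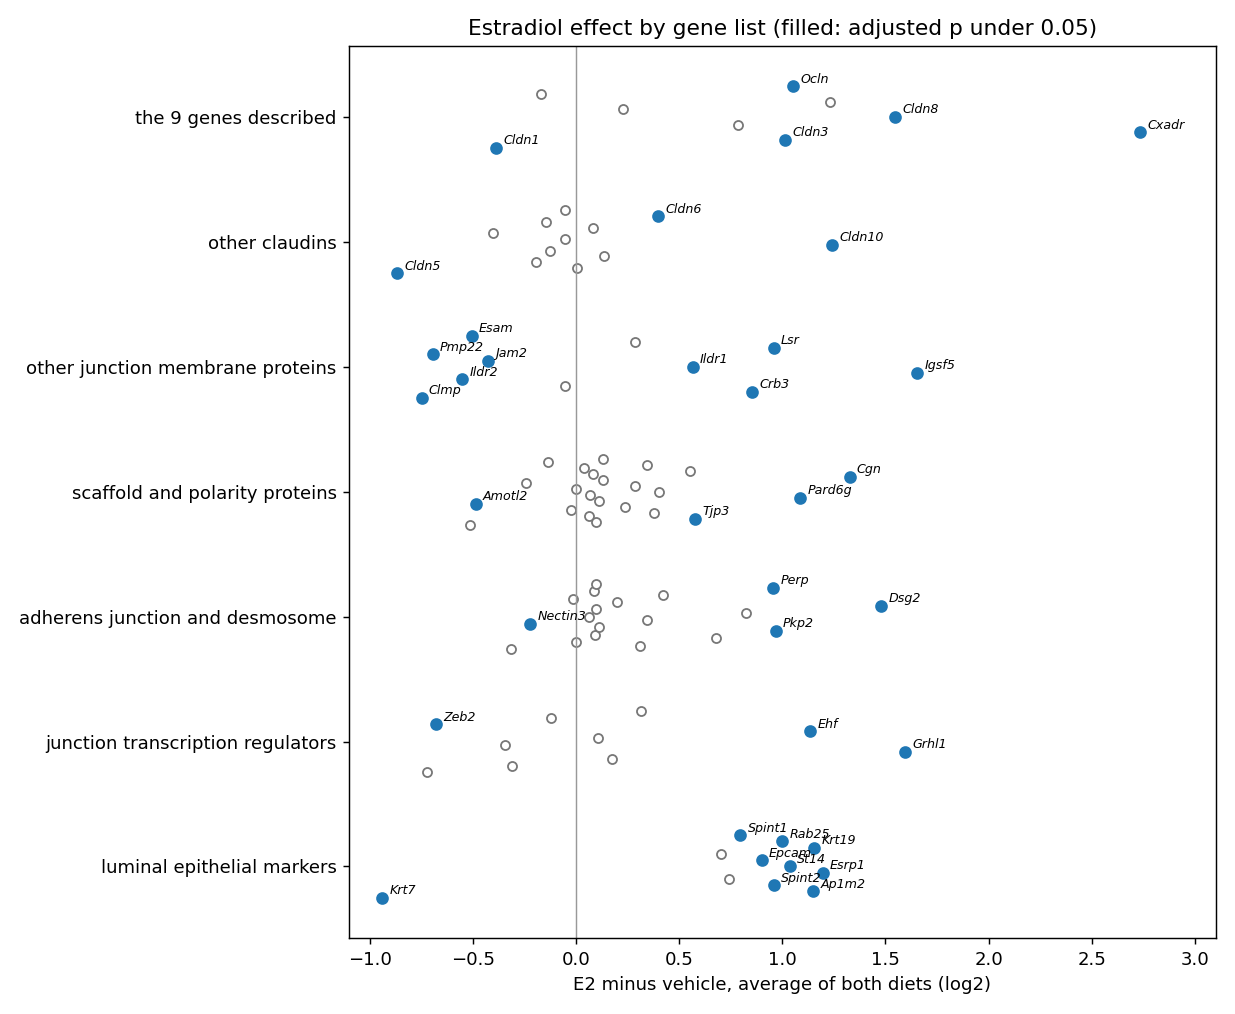
Difference between E2 and vehicle averaged over diets (horizontal axis, log2) for every measured gene of 7 lists; each point is a gene, filled and named where it passed the adjusted test, and vertical position within a list only separates points. The luminal markers other than Krt7 lie between 0.70 and 1.195, and the scaffold list is spread around its median of 0.11.

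Casein pools 2 and 3 and soy pool 2 were the pools highest in liver or muscle transcripts. Without them 8 samples were left with 1 in the casein group, whose spread was taken from the other groups. The casein sample left, pool 1, still had a skeletal muscle score of 1.70. This setting was chosen after seeing the data. It called no member and 2 of 14217 genes (0.0141%), with 2652 genes at an unadjusted p under 0.05. The E2 differences were 2.81 ± 0.39 for Cxadr (adjusted p = 0.0824), 1.43 ± 0.39 for Cldn8 (1.425 before rounding), 0.97 ± 0.17 for Ocln (0.165 before rounding), 0.96 ± 0.36 for Cldn3 and -0.29 ± 0.10 for Cldn1, each within 1.5 times of the value over all samples.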

How the data were processed

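Total RNA from frozen abdominal mammary gland pairs (8 µg) was biotin-labelled for Affymetrix arrays, per the labels' protocols. The authors deposited 1 table of 31099 probe sets on 12 arrays. The submitters' processing notes name GCOS, the array software, with no version. How probe sets were summarised and normalized, and the log base, were not found in the labels or headers. The range of the deposited values (widest 9.85) fits log2, which all folds assume. Probe set medians were 0 (largest 5e-07), so no filter on dim probe sets could be applied.

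Gene symbols came from GEO's platform annotation. A single gene was named by 20826, several by 436 and none by 9780, with 57 controls left out, and 20758 matched the GRCr8 table by gene identifier. Probe sets of a gene were averaged (14217 genes). Means of the 4 groups were estimated from 11 samples (limma 3.58.1, R 4.3.3, eBayes, 7 residual degrees of freedom), two-sided, with Benjamini-Hochberg adjustment over all genes. The code was tested on simulated data.

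Members, lists and tests were chosen with earlier results of these data known. Named genes were all members, up to 4 called genes per direction in each junction list, 5 luminal markers, Cldn5, Pgr and the 6 genes of highest r. Krt7, Cdh1, the r values of the remaining luminal markers and the Cldn10 values by sample were added after they were seen. Alternatives were quantile normalization, median centring, 12 separate arrays, the probe set of largest SD, array weights, only the groups compared, the pool number as a block, a split by spike-in signal and each array left out.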

Additional observations from a re-analysis of the deposited data

How the results depend on the processing

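For the E2 average 5 of 9 members passed, 2 to 6 with each array left out in turn, 0 without the 3 pools high in liver or muscle transcripts, and 0 with the luminal score as a term. Of the arrays left out, casein plus E2 pool 1 gave the fewest calls, in a fit with 1 sample left in its group. Without casein pool 2, soy pool 2, or soy plus E2 pool 1 or 2, 3 calls were left. The share of all genes called moved as well, from 12.2% to 2.2% when casein plus E2 pool 1 was left out, 6.32% for casein pool 2, 7.9% for soy pool 2, and 4.52% and 4.5% for soy plus E2 pools 1 and 2. In casein-fed rats 2 passed, beside 2.43% of all genes, and 0 to 3 with each array left out. With both casein plus E2 samples kept, the share of all genes called lay between 0.0844% and 4.15% over the arrays left out. The casein-fed count was 1 with the probe set of largest SD (2% of all genes called) and 1 with only the contrast's groups (1.41%). It was 0 with the spike-in split (1.73%) and 0 with the luminal score as a term (0.0914%). Without the 3 pools only 1 casein sample was left, so that count is not given. In soy-fed rats 0 passed, 0 to 2 with each array left out, 2 with quantile normalization, 1 with 12 separate arrays and 5 with array weights. Calls over all genes rose there too, from 0.218% to 1.65% with quantile normalization, 1.59% with separate arrays and 14.3% with array weights. Of 13 probe sets 7 passed, 2 to 8 with each array left out (2 without casein plus E2 pool 1, or soy plus E2 pool 1 or 2) and 0 without the 3 pools. Relative to the luminal score 4 passed, beside 74.9% of all genes called, and 2 to 5 with each array left out (2 without soy plus E2 pool 1). As stated above, the calls of that fit are not read. The soy and interaction comparisons called 0 members in limma under all alternatives run.

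Pool numbers gave no visible pairing of the samples. Deviations of same-numbered pools had r between -0.42 and 0.46 (median 0.03), with 5 of 18 pairs over 0.1. Those of different-numbered pools had r between -0.414 and 0.433 (median 0.015), with 12 of 36 pairs over 0.1. Pool number as a replicate block was fitted to 12 arrays, with casein plus E2 pools 2 and 3 counted apart. There 6 members passed for the E2 average, beside 14.4% of all genes called. In casein-fed rats 3 passed (5.77% of all genes) and in soy-fed rats 0 (0.183%). Over 1170 member values under alternatives 43 calls were lost, 23 gained and 0 called values changed sign, while 77 values that did not pass did. Most of the 1170 values did not pass in the main fit and so could not lose a call. Only the 5 members called for the E2 average, under 21 settings each, and the 2 in casein-fed rats, under 22, could. A fit with only the contrast's groups does not apply to the E2 average and the interaction. Causes were not tested. Centred values leave signal over background unknown.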
